A study of Homo sapiens with 19 samples.

Results

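The late course of human embryonic stem cells (hESCs) that lost EED was examined by comparing days 24 and 28 after doxycycline (DOX) withdrawal with day 20. A gene was taken as higher on both days when TPM + 1 was at least 2-fold above day 20 on day 24 and on day 28, and as lower on both days when it was at least 2-fold below day 20 on each. TPM is a transcript's share of its library, corrected for length, so that levels can be compared between genes, and adding 1 keeps very low values from giving large ratios. Of 33382 genes measured, 19011 passed a filter that asked for a TPM of 1 or more in any of the 7 libraries of this line. Among them 1392 genes (7.32%) were higher and 1118 genes (5.88%) were lower on both days, and these 2510 genes are the members described here. Their ratios chose them, so the ratios are given as a description with no test.

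The 3 samples used were 1 library each of H1-EED-/-/EED-OE cells at days 20, 24 and 28 without DOX, out of 19 libraries in the series. H1 is an established hESC line. In H1-EED-/-/EED-OE cells the endogenous EED gene was deleted on both alleles, and EED was supplied from a lentiviral transgene that DOX switches on and that was in place before the deletion was made. Knockout lines were kept in mTeSR1, a medium for undifferentiated hESCs. The same line gave 1 library with DOX and 1 library at each of days 8, 12 and 16 without DOX. The other 12 libraries were 2 each of WT H1 cells, of the single knockouts EED-/-, SUZ12-/-, EZH1-/- and EZH2-/-, and of the double knockout EZH2-/-/EZH1-/-, all in H1. The time course therefore follows 1 line made from selected clones without replicates, days 24 and 28 share the single day 20 library as reference, and no p-value can be given for any single day. The library with DOX carries a day 28 tag in its title as well, and its group was taken from its treatment label. It is placed before day 8 here as the state with DOX, an order that does not say when it was collected.

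EED is a core subunit of Polycomb repressive complex 2 (PRC2), which places the repressive mark H3K27me3 on histone H3. In hESCs this mark covers many genes that control lineage choice. When cells leave pluripotency by way of the primitive streak, the transient region of the embryo from which mesoderm and endoderm arise, genes such as T (brachyury, also TBXT), MIXL1, EOMES and MESP1 are switched on briefly. Mesoderm that moves on from this stage produces extracellular matrix, contractile cells, endothelium and blood, and endoderm produces the serum proteins of yolk sac and liver.

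The targeted gene was read first. EED stood at a TPM of 109 with DOX and at 18.3, 17.5, 13.7, 12.6, 21.6 and 31.6 on days 8, 12, 16, 20, 24 and 28 without it. All 6 libraries without DOX were thus below the library with DOX, and among them days 24 and 28 were the highest. TPM sums reads over the whole gene and does not separate the transgene from what is left of the edited locus, and in EED-/- H1 cells it was 18.3 ± 5.73 against 19.6 ± 3.3 in WT H1 cells (SD, n = 2 each), a log2 difference of -0.12 (SE 0.24) with an adjusted p of 0.71 in limma. Across the 3 libraries of days 20, 24 and 28, between 15576 and 16223 genes had a TPM of at least 1 and the 10 highest genes held 6.53% to 7.28% of all TPM. Read depth is unknown, since TPM does not keep it.

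Day 20 carried genes of the primitive streak beside genes of pluripotency. T, MIXL1, EOMES, MSGN1 and MESP1 had TPM values of 186, 164, 96.6, 91.4 and 46.1 on that day, and POU5F1, which encodes OCT4, still had 1579.8. MESP1, an early regulator of cardiac mesoderm, was under 1 in the other 6 libraries of the line. T, MIXL1 and EOMES were already at 125, 303 and 115 on day 16, so the streak genes did not appear together. Since these are bulk samples, fewer cells of a type and less RNA per cell cannot be told apart in any ratio given here.

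Day 24 differed from day 20 by at least 2-fold at 2060 genes upward (10.8%) and 1749 downward (9.2%), and day 28 at 3583 upward (18.8%) and 1983 downward (10.4%). The median gene moved by 0.00 on the log2 scale on day 24 and by 0.17 on day 28. The ratios and the main calls were not adjusted for that small upward shift. With median-ratio scaling 1215 genes were higher and 1203 lower on both days. Over the genes higher on both days the median log2 ratio was 1.63 on day 24 and 1.87 on day 28, and over the genes lower on both days it was -1.58 and -1.74. The move was larger on day 28 for 854 of the 1392 risers and 559 of the 1118 fallers, and larger on day 24 for 536 and 378. The other members had the same ratio on both days. In 15 genes the 2 days went opposite ways with day 24 up and in 29 with day 24 down. At 8-fold or more on both days, 127 genes were higher and 93 lower.

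**Figure D1:**
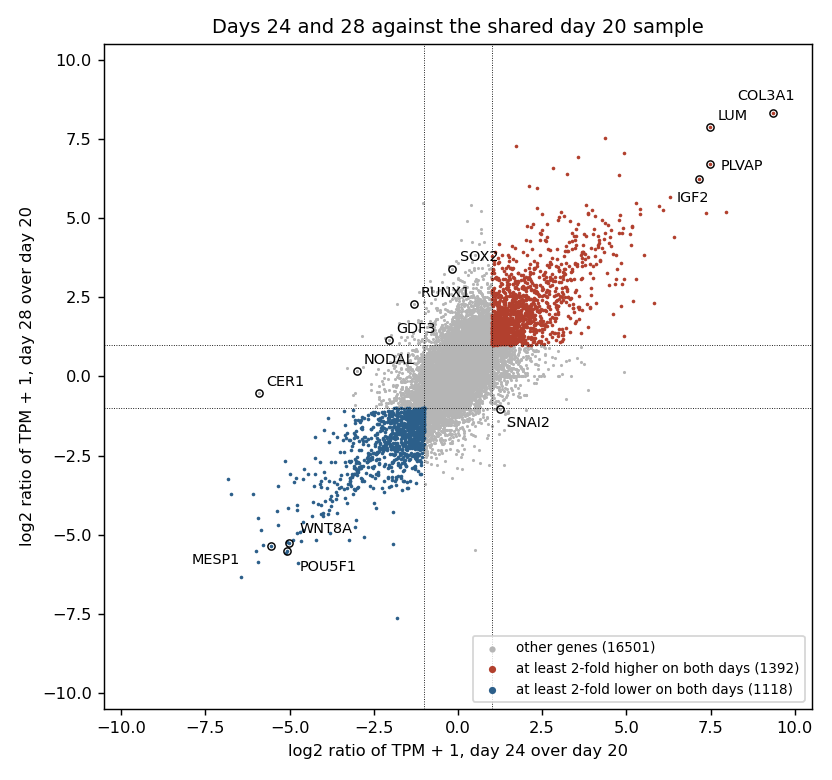
Log2 ratio of TPM + 1 of day 24 over day 20 (horizontal axis) and of day 28 over day 20 (vertical axis) for 19011 genes, 1 library per day, with dotted lines at 2-fold. The 1392 red genes were higher and the 1118 blue genes lower on both days, COL3A1 lies at the far upper right, and NODAL and CER1 lie left of the line for day 24 without reaching it for day 28.

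By the rule that chose them, all called genes lie in the upper right or lower left corner of the plot, and its axes share the day 20 library. Days 24 and 28 were above all 5 other libraries of the line in 1222 of the 1392 risers (87.8%). Day 20, 1 of the 5, was lower by the choice of members. Of the fallers, 580 of 1118 (51.9%) had their highest level on day 20 itself, and 595 (53.2%) went below each of the 5 other libraries. The choice of members favours a high day 20 among fallers and leaves days 24 and 28 out as peaks, so these shares are a description only. The TPM was under 1 on day 20 in 402 risers and under 1 on both later days in 364 fallers. Protein-coding genes made up 88.9% of the risers and 71.1% of the fallers, beside 81.3% of all genes past the filter. Long non-coding RNAs (lncRNAs) made up 9.7% and 25.2%, beside 16.6%.

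Replicates exist only for the other 6 lines, and they give a scale for the ratios. At least 2-fold differences between the 2 libraries of a line touched 243 to 3828 of the same 19011 genes. The lowest number was in EZH1-/- H1 cells and the highest in EZH2-/-/EZH1-/- H1 cells. The step from day 20 to day 24 touched 3809 and the step from day 24 to day 28 touched 3242. Both steps thus touched fewer genes than the EZH2-/-/EZH1-/- H1 replicates and more than the replicates of any other line, at most 1699. Both ratios of 1118 of the 1392 risers and of 926 of the 1118 fallers exceeded the largest replicate difference seen for that gene in any of the 6 lines. Over all genes this held for 3739 (19.7%). The members were chosen on these same ratios, so nothing is read from their larger share.

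The 12 largest rises held genes of matrix, vessels and growth factors. COL3A1 (chr2:188974373-189012746, + strand, GRCh38), which encodes type III collagen, had TPM values of 2.93, 0.92, 0.3, 0.46 and 2.84 with DOX and on days 8, 12, 16 and 20, and then 2534 and 1237 on days 24 and 28, 660.0- and 322-fold above day 20. It was near silent in 5 libraries and among the abundant transcripts in the last 2. LUM (chr12:91102629-91111494, - strand), a proteoglycan that organises collagen fibrils, went from 0.54 on day 20 to 277 and 361, and PLVAP (chr19:17351450-17377342, - strand), a protein of endothelial diaphragms, from 1.77 to 490.4 and 286. IGF2 (chr11:2129112-2158391, - strand), the imprinted fetal growth factor, had 3.74, 5.64, 2.56, 1.36, 18.2, 2718 and 1446 across the 7 libraries, with DOX first and then days 8 to 28. PRSS23, SRPX2, IGFBP3, PDLIM3, COL6A3, TM4SF1, SST and AQP1 completed the 12, with log2 ratios between 5.14 and 7.95. AQP1 is a water channel of vessels and kidney. SST, the hormone somatostatin, was at 323 and 68.8 on days 24 and 28 and below a TPM of 1 in all other libraries of the line.

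The 12 largest falls held POU5F1, MESP1, the WNT ligand WNT8A, the NOTCH ligand DLL3, the keratin gene KRT16, SHISA3, FAM150B, FAM159B, HHLA1 and the non-coding transcripts LINC01356, LL22NC03-N95F10.1 and RP11-1144P22.1. POU5F1 (chr6:31164337-31180731, - strand) had 2916, 2422, 3468, 3356, 1579.8, 46.2 and 33.6 across the 7 libraries. It had dropped only from 3356 to 1579.8 by day 20 and then fell 33.5- and 45.7-fold below that level. HHLA1 ran at 946, 15.4 and 31.6 and LL22NC03-N95F10.1 at 484, 4.54 and 4.97 on days 20, 24 and 28, both from still higher levels before. KRT16, by contrast, was at 0.72 with DOX, peaked at 322 on day 20 and came back to 8.36 and 5.76. DLL3 and MESP1 peaked on day 20 as well, and DLL3 had 12.8, 17.3, 50, 27.6, 194, 5.6 and 4.45 across the 7 libraries.

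Around the 2-fold line the values hardly differed. Just inside for rises lay ARHGEF17, with 19, 57 and 39 on days 20, 24 and 28, and MDM2, with 77.6, 156 and 428. Just outside lay BRI3, with 52.8, 106 and 126, and GPX8, with 57.3, 130.1 and 116. For falls STIL lay just inside, with 22, 10.49 and 6.01, as did EIF4E3, with 16, 4.24 and 7.48. LINC00665 lay just outside, with 93.9, 29.6 and 46.5, as did CTSC, with 237, 118 and 44.6.

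Counts for each list below are to be set beside the shares over all genes, 7.32% higher and 5.88% lower on both days. Genes of pluripotency were lower as a group. Of 21 past the filter 13 fell on both days and 0 rose, and their summed TPM was 3201 on day 20, 624.4 on day 24 and 643.7 on day 28. NANOG, the homeobox factor that works with OCT4, had 42.4, 6.77 and 1.71 on days 20, 24 and 28, and ZSCAN10 had 66.7, 1.49 and 2.62. DPPA4, L1TD1, TDGF1, VRTN and DNMT3B fell as well, DPPA4 from 134 to 36.7 and 13.3 and the de novo methyltransferase DNMT3B from 91.1 to 21.5 and 32.6. SOX2 did not share this course. It had 131, 417, 165, 94.3, 2.48, 2.1 and 35.9 across the 7 libraries, so it was nearly lost by day 20, when POU5F1 was still high, and was higher again on day 28. LIN28A, an RNA-binding protein, remained at 251 and 275 after 512 on day 20, and SALL4 at 65.8 and 72.9 after 107.

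Of the 24 primitive streak genes past the filter 17 fell on both days and 0 rose, with median log2 ratios of -3.02 on day 24 and -2.26 on day 28. The T-box factor T had 186, 0.74 and 13.1 on days 20, 24 and 28, MIXL1 had 164, 3.08 and 5.33, and MSGN1, a regulator of presomitic mesoderm, had 91.4, 0.51 and 3.17. Falls of T, MIXL1 and EOMES were deepest on day 24, and each stood higher on day 28 than on day 24. TBX6, MESP1, MESP2, WNT3A and WNT8A stayed low on both days, and TBX6 went from 63.9 to 1.53 and 1.17. FOXH1, the partner of SMAD proteins in NODAL signalling, had 75.7, 2.77 and 2.61, although it had already been at 96.7 with DOX.

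A group of streak and node genes was low on day 24 alone. CER1, a secreted antagonist of NODAL, BMP and WNT, had 358, 4.98 and 248 on days 20, 24 and 28. NODAL itself had 50.3, 5.4 and 57, FGF8 had 22.2, 7.07 and 28.8, and GSC, a marker of the organizer, had 15.1, 3.41 and 19.1. These 4 genes and GATA6, at 66.2, 27.3 and 62.5, were at least 2-fold below day 20 on day 24 and within 1.5-fold of it, or above it, on day 28. The same held for 414 of the 631 genes that were at least 2-fold lower on day 24 but not on day 28. With 1 library a day, a change with time and a difference between cultures cannot be told apart.

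The 250 bases before the start site are shown for SP5 and MIXL1, the genes of this list whose upstream sequence holds CTTTGAT, the core that TCF/LEF factors of the WNT pathway recognise. It was searched on both strands, the sequences are from RefSeq (GRCh38.p14) and run 5′ to 3′ in the direction of the gene, and capitals mark the motif. It lies at -109 in SP5 and at -76 in MIXL1, counted from the start site.
SP5 (chr2:170715087-170715336, + strand): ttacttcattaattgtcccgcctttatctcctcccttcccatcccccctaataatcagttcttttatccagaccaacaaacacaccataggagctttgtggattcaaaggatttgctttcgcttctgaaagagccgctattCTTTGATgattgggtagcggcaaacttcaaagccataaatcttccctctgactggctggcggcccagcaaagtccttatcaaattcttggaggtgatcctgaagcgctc
MIXL1 (chr1:226223414-226223663, + strand): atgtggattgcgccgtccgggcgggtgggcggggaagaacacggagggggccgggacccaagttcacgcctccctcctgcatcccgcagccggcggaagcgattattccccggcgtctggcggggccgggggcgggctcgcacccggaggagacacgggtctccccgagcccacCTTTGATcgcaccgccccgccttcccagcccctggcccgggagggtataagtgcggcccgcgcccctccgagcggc
Of 16 streak genes with an entry, 2 held the motif, as did 794 of 35116 promoters in the table (2.26%). SP5, a WNT target that acts as a feedback repressor, had 184, 44 and 42 on days 20, 24 and 28, well below day 20 but still above its level of 1.2 with DOX. A match describes the letters only and says nothing of binding.

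**Figure D2:**
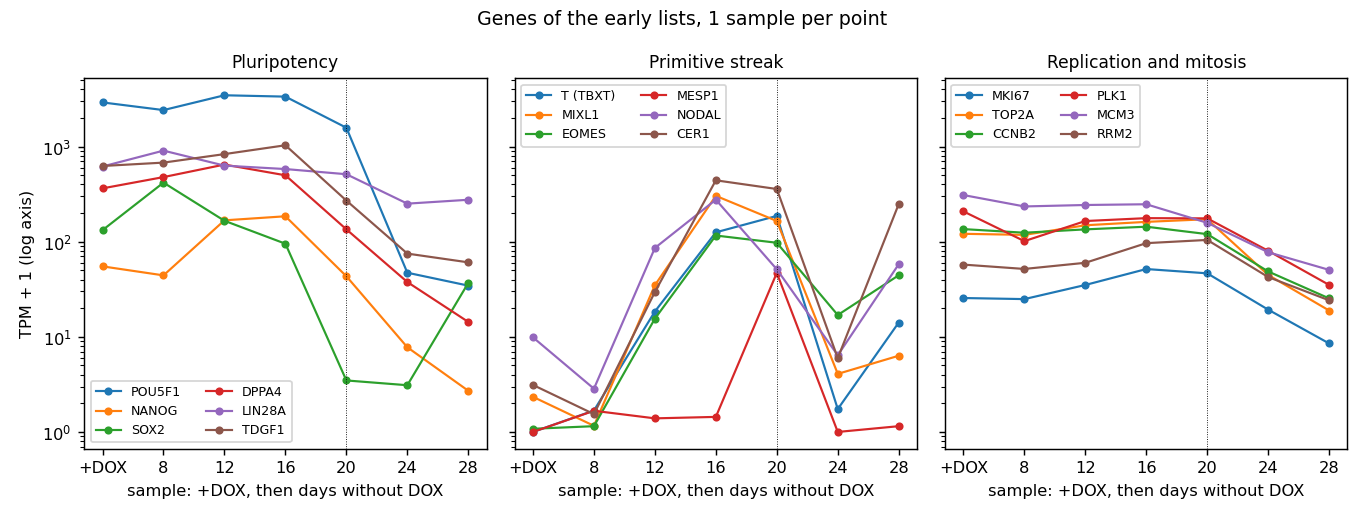
TPM + 1 on a log axis in the library with DOX and on days 8 to 28 without it, 1 library per point, for 6 genes each of the pluripotency, primitive streak and replication and mitosis lists, with a dotted line at day 20. POU5F1 drops after day 20, SOX2 before it, MESP1 appears on day 20 alone, and CER1, NODAL and EOMES dip on day 24 and stand higher on day 28.

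Other early mesoderm genes that day 20 had raised also came down. Of 14 genes of intermediate mesoderm, the source of kidney and gonad, 6 fell and 0 rose. Each of the 6 had its highest level on day 20, a peak that the choice of fallers favours and that 51.9% of all fallers had. Set against day 16 in place of day 20, 1 of the 14 was lower and 5 were higher on both days. LHX1 had 182, 21.2 and 23.2 on days 20, 24 and 28, and SALL1 had 169, 30 and 17.5. PAX2, PAX8, OSR2 and SIX2 were the other members that fell. HAND1, a factor of lateral plate and extraembryonic mesoderm, had 469.6, 122 and 11.1, a fall that went on after day 24. CDX1 and CDX2 pattern the posterior body. CDX1 had 43.9, 4.29 and 5.3, and CDX2, which fell more slowly, had 34.2, 15.3 and 6.51.

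HOX genes, which assign position along the body axis, moved both ways after day 20. Of 39 genes, 0 had a TPM of at least 1 with DOX, 18 on day 16, 38 on day 20, and 35 on each of days 24 and 28. Their summed TPM was 59.7 on day 16, 758.7 on day 20, 810.3 on day 24 and 579.0 on day 28, so the main rise came before day 20. After day 20, HOXC6, HOXC8, HOXC9, HOXC10 and HOXD10 rose, and HOXA2, HOXA5, HOXB1 and HOXB2 were among the 5 that fell. HOXC10 had 5.55, 29.4 and 21, and HOXA5 had 8.98, 3.75 and 2.54 on days 20, 24 and 28. HOXB2, at 102, 36.3 and 22.7, remained above its 6.65 of day 16. Set against day 16 in place of day 20, 29 of the 39 were higher on both days and 1 was lower. HOXA9 had 55.8, 65 and 53.4 and was among the 29 that did neither.

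Genes of fibrillar collagens and interstitial matrix rose in most of their list. Of 30 genes 21 rose and 2 fell, with median log2 ratios of 2.00 and 2.02, and the summed TPM of the list was 2218 on day 16, 7855 on day 20, 28790 on day 24 and 28290 on day 28. COL1A1, which encodes a chain of type I collagen, had 72.6, 2011 and 2279 on days 20, 24 and 28. COL1A2, its partner chain, had 116, 1878 and 2658. FN1 (fibronectin) had 3329, 11341 and 11092, and its largest step as a fold had come between day 16, at 222, and day 20. Fibronectin thus stepped up both before and after day 20. LOX, which cross-links collagen and elastin, had 2.46, 118 and 77.3. BGN, a small proteoglycan, had 31.9, 954 and 753, and POSTN (periostin) had 1.88, 77.7 and 235. DCN, a proteoglycan of mature connective tissue, rose from 0.52 to only 10.4 on day 28. The other 9 of the 30 did not rise. TNC (tenascin C) fell, with 245, 63.3 and 70.2, and MFAP4, a protein of elastic fibres, fell with 124, 11.3 and 7.63, while 7 did neither. Collagen genes outside the list also fell, an observation made after their values were seen, among them COL13A1, with 96.6, 17.1 and 4.49 on days 20, 24 and 28, and COL9A2, with 139, 59.6 and 47.7. The chains of type VI collagen differed from each other, since COL6A3 had 2.18, 216 and 121 while COL6A1 had 1179.6, 879 and 479.

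Basement membrane genes rose in 7 of 20 and fell in 1. COL4A1 and COL4A2, the type IV collagen chains that share a divergent promoter, moved alike. COL4A1 had 134, 1162 and 1137 on days 20, 24 and 28, and COL4A2 had 116, 1051 and 1110.0. COL18A1, HSPG2, LAMB1, LAMB2 and NID2 rose too. The faller was LAMA2, the laminin chain of muscle, at 17.6, 1.29 and 1.81. LAMA1, the chain of early embryonic membranes, had 86.3, 84 and 275 and passed 2-fold on day 28 alone.

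Contractile genes rose in 8 of 16 with 0 falls. ACTA2, smooth muscle actin, had 24.2, 899 and 678 on days 20, 24 and 28. TAGLN, an actin-binding protein, had 395, 1801 and 3056, and tropomyosin TPM1 had 330.4, 2107 and 1544. CNN1, CALD1, MYL9, LMOD1 and the coactivator MYOCD also rose. The defining marker of mature smooth muscle, MYH11, was under 1 on all 3 days, at 0.22, 0.16 and 0.15, and DES was at 6.75, 13.2 and 2.15. Most of the members that rose are also used by myofibroblasts and other contractile cells.

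Cardiac and lateral plate genes rose in 7 of 21 and fell in 1. NKX2-5, a heart field factor, had 10.1, 38.1 and 32.4 on days 20, 24 and 28, and MEF2C, its partner, had 0.63, 21.3 and 22.6. ISL1, a factor of the second heart field, had 14.3, 31.2 and 30.7. The sarcomere gene TNNT2 had 2.4, 25.2 and 43.8, whereas the myosin heavy chain MYH6 was under 1 throughout, at 0.59, 0.09 and 0. MYL7 had 81.7, 76.5 and 455 and TNNC1 had 64.8, 129.5 and 386, past 2-fold on day 28 alone.

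ACTC1, cardiac actin, had the largest day 24 value of this list, with 55.9, 1616 and 264 on days 20, 24 and 28. Its upstream sequence holds a CArG box, the site of serum response factor, at -109 (capitals, same source and direction as above), and is shown as the only upstream sequence with this motif among the 12 risers and fallers of the contractile and cardiac lists that had an entry.
ACTC1 (chr15:34795550-34795799, - strand): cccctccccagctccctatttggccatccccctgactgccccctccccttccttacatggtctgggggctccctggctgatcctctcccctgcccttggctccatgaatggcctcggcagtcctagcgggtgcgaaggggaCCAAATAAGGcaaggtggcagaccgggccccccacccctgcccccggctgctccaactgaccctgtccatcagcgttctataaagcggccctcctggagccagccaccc
The motif was present in 407 of all 35116 promoters (1.16%), and in 4 of the 11 contractile genes with an entry, namely ACTG2, CNN2, MYLK and SMTN. Those 4 were not at least 2-fold higher on both days, and ACTG2 had 3.42, 7.44 and 30.4.

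Endothelial genes rose in 15 of 20 with 0 falls, and their median log2 ratios of 3.21 and 3.15 were the highest of the 27 lists. CDH5, the cadherin that defines endothelial junctions, had 1.36, 36.4 and 88.6 on days 20, 24 and 28. PECAM1, also of these junctions, had 1.4, 32.2 and 50.4. Neither passed a TPM of 2 in any other library of the line. Receptors of vessels rose alike, among them the angiopoietin receptor TEK, with 2.41, 131 and 28, and the VEGF receptor FLT1, with 29.4, 799 and 315. The surface protein CD34 had 6.66, 172 and 139.6, and the transcription factor ERG had 0.29, 22.6 and 24.6. KDR, the receptor of VEGF that early mesoderm also carries, was an exception, with 146, 328 and 126 after 192 on day 16. VWF had 9.1, 8.44 and 11, and ETV2, the factor that opens the endothelial program, had 5.07, 4.25 and 1.68, so neither was above day 20 by 2-fold on either day.

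Blood genes rose at close to the share of all genes, 7.32%. Of 20 listed only 12 passed the filter. Among these 1 rose (TAL1, 8.33%) and 3 fell (ALAS2, HBA1 and HBA2, 25.0% beside 5.88% of all genes). HBA1 and HBA2, which are nearly identical and can share reads, were at 10.2 and 1.31 on day 20. GATA1, PTPRC, HBZ and SPI1 had TPM values under 1 on days 20, 24 and 28. Factors shared by endothelium and blood were present, LMO2 at 23.7, 56.7 and 29.7 and LYL1 at 8.1, 25.8 and 15.3. RUNX1, which is needed for blood cells to emerge from endothelium, had 5.54, 1.62 and 30.7, a move that ran opposite ways on the 2 days.

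**Figure D3:**
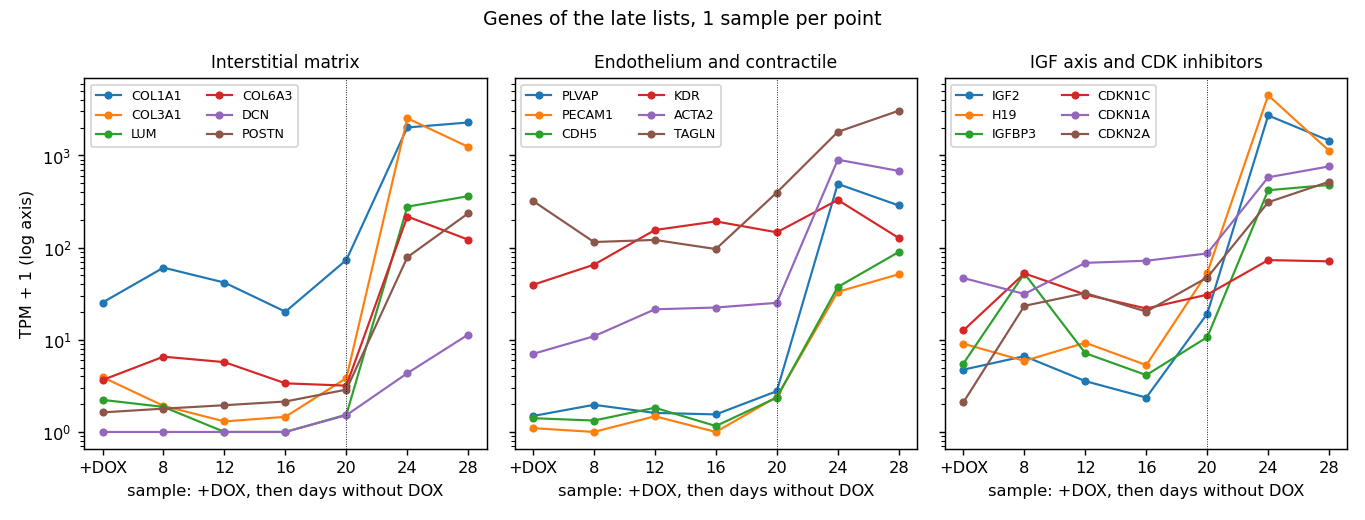
TPM + 1 on a log axis in the library with DOX and on days 8 to 28 without it, 1 library per point, for 6 genes each of matrix, of endothelium with contractile genes, and of the IGF axis with CDK inhibitors, with a dotted line at day 20. COL3A1, LUM, PLVAP, IGF2 and ACTA2 jump between days 20 and 24, and KDR is back at its day 20 level on day 28.

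On the endoderm side 2 of 18 transcription factors were higher on both days (HHEX and PROX1, 11.1% beside 7.32% of all genes) and 0 lower. Beside these, 5 were at least 2-fold higher on 1 day only and 3 at least 2-fold lower on 1 day only. The mean log2(TPM + 1) of the list was 2.32 on day 16, 3.45 on day 20, 3.6 on day 24 and 4.11 on day 28. SOX17, a marker of definitive endoderm and of some endothelium, had 126, 83.3 and 95.7 on days 20, 24 and 28, and FOXA2 had 42.5, 31.6 and 89.7. HNF4A, which drives serum protein genes in liver and yolk sac, reached 44.6 only on day 28, after 5.29 and 6.14. Serum protein genes themselves rose in 8 of the 20 past the filter, with 0 falls and medians of 1.02 and 1.59. TTR, the thyroxine carrier, had 1.67, 30.6 and 324. The apolipoprotein APOA1 had 66.3, 217 and 524, and APOB had 1.63, 8.04 and 20.1. All 3 were higher on day 28 than on day 24. AFP and ALB, the defining products of fetal liver, stayed low, AFP at 2.36, 1.03 and 7.94 and ALB at 0.18, 0.61 and 0.67.

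Lists of other tissues gave mixed counts, beside 7.32% of all genes higher and 5.88% lower. Trophoblast and amnion genes rose in 4 and fell in 5 of 19, with IGFBP3, ISL1, TP63 and VGLL1 among the rises and GABRP, TFAP2C, CDX2, HAND1 and ERVW-1 among the falls. GATA3, which had been at 2.72 on day 16, stayed at 61.4, 50.9 and 40 on days 20, 24 and 28. Neural ectoderm genes rose in 1 (MAP2, 5.26%) and fell in 3 (SOX3, ZIC5 and NKX1-2, 15.8%) of 19. PAX6, a factor of eye and brain, had 3.27, 2.08 and 32.8 and was above day 20 by 2-fold on day 28 alone, while SOX1, which defines neural plate, was at 0.36 on that day.

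Genes of epithelial to mesenchymal change rose in 4 of 17 (VIM, CDH11, ZEB1 and ZEB2) and fell in 1 (SNAI1). VIM, the mesenchymal filament, had 633, 5805 and 4533 on days 20, 24 and 28. SNAI1, an early repressor of CDH1, had 142, 58.5 and 17.9, and SNAI2 had 64.7, 154 and 31.1. Epithelial surface genes remained beside VIM. CDH1 had 96.4, 45.7 and 63.4, and EPCAM had 268, 156 and 501. Among 17 simple epithelial genes KRT8, KRT18 and OCLN rose and 0 fell.

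Signalling genes changed their ligands. In the BMP list 7 of 28 rose and 2 fell. BMP4 had gone from 24.7 on day 16 to 329 on day 20 and was at 368 and 152 after that. BMP6 took a later course, with 4.96, 55.2 and 91.5 on days 20, 24 and 28. GDF6, GDF7 and the antagonists GREM1 and NOG also rose, NOG from 6.08 to 30 and 59.1. TBX2 was also among the 7, and BMP4 was not. ID genes are direct BMP targets. ID4 had 120.2, 27.6 and 12.5, and ID2 had 358, 171 and 118, and both fell. ID1 had 464, 275 and 116 and was below day 20 by 2-fold on day 28 alone.

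In the TGF-beta and NODAL list 9 of 20 rose and 2 fell. The ligand TGFB2 had 1.6, 28.4 and 54.8 on days 20, 24 and 28, and TGFB1 had 141, 421 and 286. The receptor TGFBR2 had 3.31, 19.7 and 21.8, and INHBA, which makes activin A, had 0, 4.6 and 33.9. CTGF, which TGF-beta is known to induce, rose as well, with 64.7, 1214 and 819.9. LEFTY1 and LEFTY2, feedback inhibitors of NODAL, fell, LEFTY1 with 72.5, 1.9 and 1 and LEFTY2 with 179, 12.3 and 9.62. Both stayed low on day 28, when NODAL did not.

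WNT ligands exchanged places. WNT3, WNT3A, WNT5A, WNT5B and WNT8A fell and WNT2 and WNT2B rose among 26 genes, of which 6 rose and 7 fell in all. WNT5B had 106, 18 and 19.1 on days 20, 24 and 28, and WNT2 had 4.64, 10.9 and 53.8. Secreted modulators changed too. DKK1, a secreted inhibitor, had 20.8, 211 and 104, and RSPO3, an enhancer of WNT signalling, had 24.1, 133 and 249.8. SFRP2, a modulator that is abundant in hESCs, had 685, 255, 515, 350.2, 139, 10.6 and 5.98 across the 7 libraries. The feedback target AXIN2 was at 17, 16 and 21.8 and was not 2-fold away on either day.

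The IGF axis rose in 11 of 18 genes with 0 falls. H19, the imprinted lncRNA next to IGF2, had 52.2, 4498 and 1121 on days 20, 24 and 28. IGF1 had 0.54, 11 and 46, and its receptor IGF1R had 13, 28.9 and 43.1. The binding proteins IGFBP2, IGFBP3, IGFBP5 and IGFBP7 rose, IGFBP5 from 13.2 to 133 and 1186. DLK1 had 13.4, 157 and 119. MEG3, the maternal transcript of the DLK1 domain, stayed at 0.09, 0.49 and 0.19, and PEG3 was listed at 0 in all 7 libraries. CDKN1C, an imprinted CDK inhibitor, had 29.9, 72.2 and 70.

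Genes of DNA replication and mitosis fell in 17 of 30 with 0 rises, and the medians went from -1.07 on day 24 to -1.83 on day 28. At 3-fold on both days 3 of the 30 were lower. MKI67, the Ki-67 antigen of cycling cells, had 45.5, 18.3 and 7.52 on days 20, 24 and 28. TOP2A, the topoisomerase of dividing cells, had 172, 43.8 and 17.9, and the mitotic kinase PLK1 had 175, 79.3 and 34.1. Up to day 20 the list had been nearly level, with a mean log2(TPM + 1) between 6.30 and 6.74 in the first 5 libraries. TYMS (thymidylate synthase) was at 125, 135 and 108 and did not follow.

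CDK inhibitors and related genes rose in 6 of 12 with 0 falls. CDKN2B (p15) had 0, 0.4, 0.35, 1.28, 0.98, 40 and 362 across the 7 libraries, and its neighbour CDKN2A (p16 and ARF) had 1.1, 22.3, 31.1, 19.2, 46.4, 310.1 and 518. CDKN2A had left its level with DOX by day 8, CDKN2B not before day 24. CDKN1A (p21) had 85.5, 579 and 759.8 on days 20, 24 and 28. CDKN1B stayed at 29.7, 17.5 and 20.3, and GDF15, which p53 is known to induce as it does CDKN1A, had 46.1, 239 and 529.

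CCAAT, the site of the factor NF-Y, is common upstream of cell-cycle genes, and the 250 bases of CCNB2 and TOP2A are shown because each holds 4 copies. It was searched on both strands (ATTGG on the other), and capitals mark each copy. The copies begin at -244, -120, -87 and -54 in CCNB2 and at -244, -160, -93 and -53 in TOP2A.
CCNB2 (chr15:59104896-59105145, + strand): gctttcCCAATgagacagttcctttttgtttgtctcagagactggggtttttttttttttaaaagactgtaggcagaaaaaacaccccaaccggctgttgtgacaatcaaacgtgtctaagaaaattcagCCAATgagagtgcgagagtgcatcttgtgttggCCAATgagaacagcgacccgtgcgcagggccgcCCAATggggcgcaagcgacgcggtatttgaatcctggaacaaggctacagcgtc
TOP2A (chr17:40417897-40418146, - strand): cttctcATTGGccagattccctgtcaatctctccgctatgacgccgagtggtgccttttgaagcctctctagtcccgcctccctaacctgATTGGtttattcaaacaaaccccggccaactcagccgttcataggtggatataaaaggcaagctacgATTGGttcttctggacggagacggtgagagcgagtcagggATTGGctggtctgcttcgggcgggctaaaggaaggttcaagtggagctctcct
Of 25 genes of the list with an entry 20 held CCAAT, as did 11240 of all 35116 promoters (32.0%), and among the 13 that fell it was 12. The cell-cycle element TTTGAA, also on both strands, was present in 7 of the 25, beside 13.3% of all promoters.

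The remaining lists had few members past 2-fold on both days, beside 7.32% of all genes higher and 5.88% lower. MHC class I presentation rose in 3 of 14 (HLA-E, TAP1 and ERAP1) with 0 falls, and B2M was at 436, 488 and 467. Hypoxia and glycolysis genes rose in 2 and fell in 2 of 20, and the stress genes rose in 1 and fell in 1 of 16, with FOSB at 282, 52.3 and 45.4. Of 12 PRC2 genes 0 rose and 0 fell on both days, and EZH2 had 58.5, 33.9 and 33.2. Of 25 ribosomal protein genes 0 passed 2-fold on both days, although their median log2 ratio was 0.06 on day 24 and -0.63 on day 28.

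**Figure D4:**
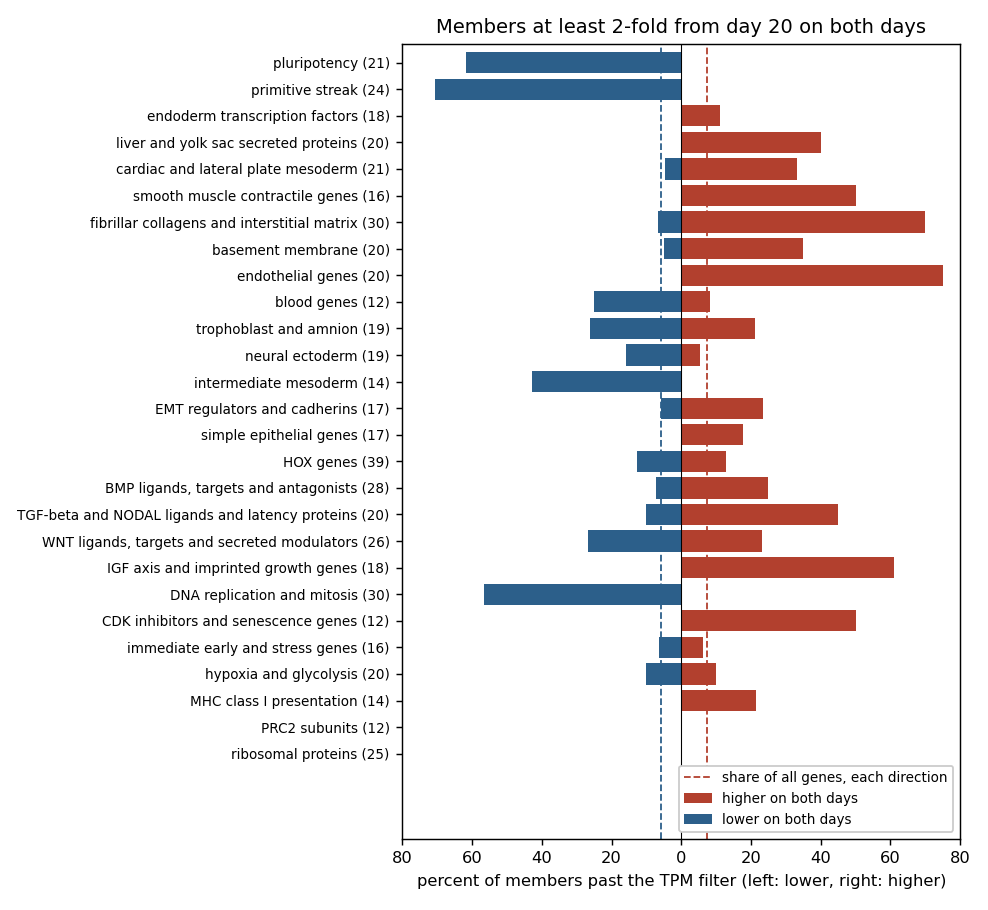
Percent of the members of 27 gene lists past the TPM filter (numbers in brackets) that were at least 2-fold higher (to the right) or lower (to the left) than day 20 on both days, with dashed lines at the shares over all genes, 7.32% and 5.88%. Endothelial genes reach 75.0% and interstitial matrix 70.0% to the right, and primitive streak genes 70.8% and pluripotency genes 61.9% to the left.

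The earlier course was read from libraries that took no part in the choice of members, day 16 without DOX against the library with DOX. In that comparison 2309 genes (12.1%) were at least 2-fold higher and 770 (4.05%) lower. Of the risers 168 of 1392 (12.1%) had been higher on day 16 and 85 (6.11%) lower. Of the fallers 283 of 1118 (25.3%) had been higher on day 16 and 58 (5.19%) lower. The median log2 change by day 16 was 0.08 over the risers, 0.36 over the fallers and 0.12 over all genes. MIXL1, for example, had gone from 1.34 with DOX to 303 on day 16 before its fall, and NANOG from 54.1 to 184, whereas COL3A1 had gone from 2.93 to 0.46 before its rise.

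The lines lacking PRC2 subunits gave a replicated reading on the same genes. EED-/- H1 cells were compared with WT H1 cells in limma at an adjusted p of at most 1% and at least 3-fold, where 3099 of 19100 genes (16.2%) were higher and 1164 (6.09%) lower. Of the 1377 risers tested 957 (69.5%) were higher in EED-/- H1 cells and 2 were lower. Of the 980 fallers tested 382 (39.0%) were lower and 58 (5.92%) were higher. These make up 30.9% of the genes higher and 32.8% of the genes lower in EED-/- H1 cells. The labels do not say that the 2 samples of a line came from separate cultures, so these p-values measure the spread between samples, which may be technical.

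SUZ12-/- H1 cells, with 2768 genes (14.5%) higher and 995 (5.21%) lower than WT H1, held 792 of the risers (57.5%) among the former and 314 of the fallers (32.0%) among the latter. EZH2-/-/EZH1-/- H1 cells, with 2220 (11.6%) higher and 1081 (5.66%) lower, held 807 (58.6%) and 349 (35.6%). Members also went the other way. In SUZ12-/- H1 cells 10 risers were lower and 106 fallers (10.8%) were higher. In EZH2-/-/EZH1-/- H1 cells 2 risers were lower and 62 fallers (6.33%) were higher. In all 3 lines 645 risers were higher, 46.8% of those tested beside 7.82% of all genes tested, and 279 fallers were lower, 28.5% beside 3.4%. The 3 comparisons share the WT H1 samples.

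Among the largest rises, COL3A1 was at 1972 ± 139 in EED-/- H1 and 0.165 ± 0.0778 in WT H1 cells (SD, n = 2 each), a log2 difference of 10.72 (SE 0.37) with an adjusted p of 2.52e-08 in limma. LUM and IGF2 differed by 8.91 (SE 0.21) and 8.40 (SE 0.23) with adjusted p of 3.41e-09 and 6.25e-09 in limma. SST did not pass in EED-/- H1 cells, where it was at 1.48 ± 1.42 against 0.865 ± 0.163 (adjusted p = 0.601, limma), but did in the SUZ12-/- line and in the double knockout, with log2 differences of 5.71 and 4.05 (adjusted p of 2.35e-06 and 3.02e-05, limma). The difference between the lines in SST was not tested. H19 differed widely between the 2 EED-/- H1 samples, at 244 ± 345 (adjusted p = 0.34, limma).

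Among the largest falls, POU5F1 was at 4.45 ± 1.17 in EED-/- H1 and 2480.0 ± 72.7 in WT H1 cells, a log2 difference of -8.85 (SE 0.27) with an adjusted p of 1.29e-08 in limma. KRT16 and MESP1, which peaked on day 20, read otherwise. Fallers with that peak were not examined as a set. KRT16 was higher in EED-/- H1 than in WT H1 cells by 1.83 (SE 0.32) on the log2 scale (adjusted p = 0.000726, limma), and MESP1 was at 0.755 ± 0.785 against 0.21 ± 0.099, with a log2 difference of 0.46 (SE 0.39) (adjusted p = 0.345, limma). WNT8A was listed at 0 in all 4 samples. By lists, 19 of 21 pluripotency genes and 28 of 30 replication and mitosis genes were lower in EED-/- H1 cells with 0 higher, and 35 of 36 HOX genes tested and 24 of 30 interstitial matrix genes were higher. Of 22 streak genes tested 12 were higher and 2 lower, although 17 of the list fell after day 20. CER1 was at 333 ± 184 against 2.65 ± 1.71, a log2 difference of 6.48 (SE 0.45) (adjusted p = 1.47e-06, limma).

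**Figure D5:**
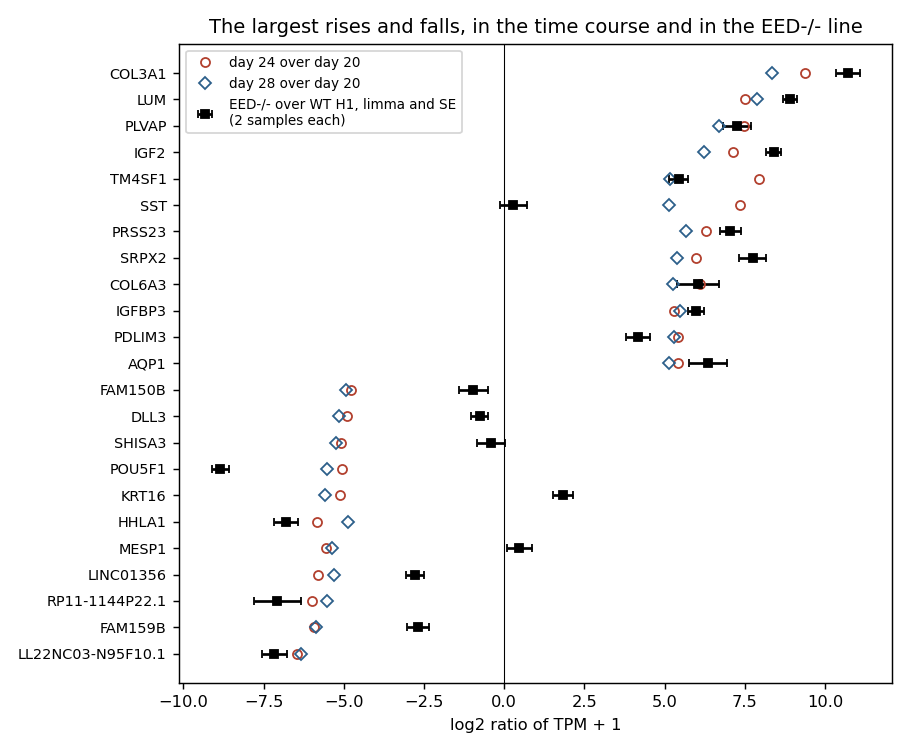
Log2 ratio of TPM + 1 for the named rises and falls that could be tested (11 of the 12 falls and all 12 rises), on day 24 (circles) and day 28 (diamonds) over day 20, 1 library each, and in EED-/- H1 over WT H1 cells (squares, limma estimate and SE, 2 samples each). Squares lie beside the circles and diamonds for most rises and for POU5F1, near 0 for SST, MESP1 and SHISA3, and to the right of 0 for KRT16.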

How the data were processed

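Total RNA was extracted with Trizol and made into TruSeq RNA libraries. For each of the 19 samples the authors deposited the TPM of 33382 genes. Per the methods, reads were aligned with Bowtie2 2.2.5 to an mRNA reference on GRCh38 and quantified with RSEM 1.2.4. EDASeq 2.2.0 is also named for normalization, and whether it touched these columns is not stated. The submitters' processing notes name hg19 beside hg38 and GRCh38. TPM keeps no read depth, so the count test described by the authors was not run, and no interval that needs counts is given.

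Groups were taken from the labels. Ratios were log2 of (TPM + 1) over (TPM + 1), among 19011 genes whose TPM reached 1 in any of the 7 libraries of the inducible line. The 6 lines with replicates were compared in limma 3.58.1 (R 4.3.3) on log2(TPM + 1), with the trend and robust options, 6 residual degrees of freedom, Benjamini-Hochberg adjustment, and a filter that left 19100 genes whose TPM reached 1 in 2 or more of 12 samples. The SE and p-values rest on 1 spread per gene estimated over all 12 samples, while each SD is from the 2 samples of a line. A fold change on this scale understates the change of low genes. Whether reads were counted by strand is not stated, so overlapping genes, such as CDKN2B and its antisense transcript, cannot be told apart. Both steps were tested on simulated data.

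Genes named are the 12 largest rises and the 12 largest falls with a TPM of at least 10 in 1 of the 3 libraries, ranked by the smaller ratio, the 2 genes on either side of each threshold, and members of 27 lists (553 genes, 552 found). The members and lists were chosen with earlier results of these data known. Gene positions are from GENCODE 44 (GRCh38) and promoters from RefSeq. The names of 33 genes differed between the sets of files, so files were joined by Ensembl identifier. Alternatives covered the pseudocount, fold, filter, scaling, reference day, days used and, for limma, samples left out. Python 3.11.15 with numpy 2.4.6, pandas 2.3.3 and matplotlib 3.10.9 was used. Some members of the lists are not reported here.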

Additional observations from a re-analysis of the deposited data

Results flagged for a closer look

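Genes of the lists that moved opposite ways on days 24 and 28, each by at least 2-fold against day 20, are given here. These differences between the days were not tested, since each day has 1 library. GDF3, a TGF-beta family ligand of pluripotent cells, had a log2 ratio of -2.04 on day 24 and 1.14 on day 28, from TPM values of 26, 5.57 and 58.4 on days 20, 24 and 28. RUNX1, a factor of emerging blood cells, had -1.32 and 2.28, from 5.54, 1.62 and 30.7. SNAI2, a factor of mesenchymal change, had 1.24 and -1.04, from 64.7, 154 and 31.1.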

How the results depend on the processing

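The counts of genes higher and lower on both days, 1392 and 1118, moved with the threshold and the reference. With a pseudocount of 0.1 they were 2209 and 1627, at 1.5-fold 2881 and 2193, at 3-fold 584 and 441, and with day 16 as reference 2338 and 1477. Day 28 alone gave 3583 and 1983 and day 24 alone 2060 and 1749. Of the main members, the day 16 reference kept 1068 risers (76.7%) and 590 fallers (52.8%), and 29 of the fallers were called higher against it; the mean of days 16 and 20 kept 1167 and 744. Median-ratio scaling gave 1215 and 1203, with 0 members called the other way, and a TPM minimum of 5 gave 1199 and 848. List members called numbered 209, with 136 at 3-fold and 311 against day 16. Of 54 list counts 19 moved by more than 1.5 times at 3-fold, where replication and mitosis genes lower went from 17 to 3, and 28 did against day 16, where HOX genes higher went from 5 to 29, endoderm factors from 2 to 11, BMP genes from 7 to 19 and streak genes from 0 to 5. Numbers beyond 1.5 times were 17 with the mean of days 16 and 20, 8 with the pseudocount of 0.1 and 6 with median-ratio scaling. Risers higher and fallers lower in EED-/- H1 cells, 957 and 382, ranged from 853 to 933 and from 332 to 360 when each WT H1 or EED-/- H1 sample was left out in turn, and were 1648 and 707 with members set against day 16. No paired analysis was possible because the time course has 1 library per day and the labels pair no samples of the lines. Unknown depth and single libraries limit what any ratio at low TPM can show.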

Other observations

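Gene families outside the lists were noticed in the values and are described without a test, beside 7.32% of all genes higher and 5.88% lower on both days. Matrix metalloproteinases, which cut collagen and other matrix proteins, were higher on both days in 8 of 15 genes past the filter and lower in 1. MMP14, the membrane-bound member, had TPM values of 218, 511 and 563 on days 20, 24 and 28, and MMP1 had 0, 6.13 and 93.9. The exception was MMP9, at 43.1, 2.15 and 0.44. Their inhibitors TIMP1, TIMP2 and TIMP3 rose as well, TIMP1 with 109, 554 and 585 and TIMP3 with 10.9, 149 and 100.4. Integrin alpha chains, the matrix receptors, rose in 6 of 17 (ITGA1, ITGA3, ITGA4, ITGA10, ITGA11 and ITGAV) with 0 falls, while of 6 beta chains ITGB4 alone rose.

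Of 19 genes with an FGF name 5 were lower on both days (FGF4, FGF13, FGF16, FGF17 and FGF19), 1 was higher (FGF20) and 13 were neither. FGF19 had 5.21, 2.05 and 0.28 on days 20, 24 and 28. Among 42 replication-dependent histone genes 7 were lower and 0 higher. Their transcripts mostly lack poly(A) tails, and their median log2 ratio was -0.71 on day 24 and -0.02 on day 28. The 9 MCM helicase genes had medians of -0.95 and -1.49. Most of the histone genes were under a TPM of 5 on day 20, where adding 1 damps the ratios. The MCM genes ran from 7.44 (MCM9) to 160 (MCM7) on that day, so the medians are not on an equal footing.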
